A study of Mus musculus with 6 samples.

Results

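A set of 10 neuropeptide precursor genes of the septum were followed in RNA-seq libraries of mouse lateral septum from mice fed olanzapine and from control mice. The genes were Nts, Sst, Penk, Pdyn, Tac1, Cartpt, Crh, Trh, Gal and Npy, taken as the rows of the deposited tables that carry these symbols. All 10 had a row among the 35415 genes of the counts table, and all 10 passed the filter on low counts, which kept 17255 genes. None of the 10 changed with olanzapine, where changed means an adjusted p under 0.05 in edgeR's quasi-likelihood test, a call that 2.32% of all genes tested received.

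Olanzapine is an antipsychotic drug, and mice given it in feed serve as a model of drug-induced metabolic syndrome. All 6 libraries came from wild-type female C57BL/6 mice that were about 8 weeks old when they arrived and were given 1 week to settle. The olanzapine group then ate chow that held the drug at 50 mg per kg of feed for 12 weeks, and the control group ate the same kind of chow without it. Each library was made from the lateral septum of 3 mice combined, with 3 libraries (pools) per group, so the SDs given here are between pools, and how far single mice differed cannot be read from them.

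Neuropeptides are made as longer precursor proteins that enter the secretory pathway and are cut by prohormone convertases at pairs of basic residues. The peptides are packed into dense-core vesicles and released on strong activity, and most act on G protein-coupled receptors. Neurons of the lateral septum are mainly GABAergic, and many of them carry neurotensin, somatostatin or enkephalin. The neighbouring striatum is rich in enkephalin, dynorphin and substance P precursors, each in a known class of projection neuron.

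The peptide-coding parts of 7 precursors are shown because they are what the measured RNAs encode. The stretches are coding sequence of GENCODE M21 on GRCm38 (mm10), written 5′ to 3′ on the strand of the gene. Capitals mark the codons of the residues by which each peptide is known, at their first copy only. The Penk stretch holds a further copy, left in lower case.
Penk, chr4:4134313-4134372, minus strand, exon 2: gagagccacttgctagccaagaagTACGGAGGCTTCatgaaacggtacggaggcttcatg
Tac1, chr6:7556726-7557223, plus strand, joined over exons 3 and 4: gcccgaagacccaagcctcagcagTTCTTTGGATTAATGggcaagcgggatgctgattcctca
Sst, chr16:23889732-23889782, minus strand, exon 2: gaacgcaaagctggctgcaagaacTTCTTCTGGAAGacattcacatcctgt
Nts, chr10:102482334-102482393, minus strand, exon 4: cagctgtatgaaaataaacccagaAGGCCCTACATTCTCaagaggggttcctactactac
Npy, chr6:49823754-49827519, plus strand, joined over exons 2 and 3: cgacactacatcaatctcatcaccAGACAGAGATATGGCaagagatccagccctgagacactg
Gal, chr19:3411628-3413337, minus strand, joined over exons 3 and 4: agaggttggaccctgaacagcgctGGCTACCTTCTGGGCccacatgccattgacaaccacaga
Trh, chr6:92243070-92243675, minus strand, joined over exons 2 and 3: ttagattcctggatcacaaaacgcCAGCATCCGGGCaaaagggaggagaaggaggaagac

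In Penk the capitals spell tyrosine, glycine, glycine and phenylalanine, the opening of the enkephalins. The coding sequence of Penk held 7 such cores in 268 codons. Trh held 5 copies of its core, which encodes thyrotropin-releasing hormone with the glycine that becomes its amide, in 256 codons. In Tac1 the capitals encode the end of substance P, in Sst the part of the somatostatin ring that the receptors recognise, and in Nts the end of neurotensin. In Npy they encode the end of neuropeptide Y with the glycine that becomes its amide, and in Gal a conserved part of galanin. Each of these 5 cores is present as 1 copy. Cartpt, Crh and Pdyn are described by their genes.

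The 10 genes lie on 8 chromosomes. On GRCm38, Nts spans chr10:102481756-102490486, Sst chr16:23889573-23890958, Penk chr4:4133531-4138819, Pdyn chr2:129686565-129699844 and Cartpt chr13:99898489-99901091, all on the minus strand. Crh at chr3:19693401-19695396, Trh at chr6:92242061-92244650 and Gal at chr19:3409915-3414544 are also on the minus strand. Tac1 at chr6:7554879-7565834 and Npy at chr6:49822710-49829507 are on the plus strand. Penk alone overlaps another annotated gene, the antisense A830012C17Rik, which had 1 count in control pool 1 and 0 in the other 5 pools. Whether reads were counted by strand is not given in the sources used here, and without strand the reads of such a pair cannot be told apart.

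The 6 libraries held between 38208153 and 39868872 counts in genes, so depth was nearly even across pools. Of the 17255 genes tested, 401 (2.32%) changed, 316 higher and 85 lower with olanzapine, and 174 (1.01%) also passed a fold above 2 or below 0.5. All 9 markers of lateral septum neurons were detected. They summed to 127.32 to 157.42 FPKM (fragments per kilobase of exon, scaled to library size) in control pools and 82.9 to 126.95 FPKM in olanzapine pools, narrowly without overlap. None of the 9 changed in edgeR, although 5 had an unadjusted p under 0.05, all lower, against 17.6% of all genes. Only 1 of the 9 estimates was above 0, and the median log2 fold change was -0.49. Markers of neighbouring tissue also varied, most of all the 7 choroid plexus genes, which summed to between 45.0 and 5351 FPKM in control pools and between 29.0 and 3442 FPKM in olanzapine pools. The 5 thalamic genes summed to 62.0 to 72.3 FPKM in control pools and 32.1 to 56.4 FPKM in olanzapine pools, without overlap in the sum. Prkcd, the most abundant of the 5, did overlap, at 31.0 to 41.7 FPKM in control pools and 18.9 to 34.2 FPKM in olanzapine pools. All 5 estimates were below 0, none changed in edgeR, and 2 had an unadjusted p under 0.05, against 17.6% of all genes. A list of 12 genes of striatal projection neurons summed to between 392 and 859.7 FPKM, and 8 genes of cortical and hippocampal glutamatergic neurons summed to 286 FPKM in olanzapine pool 1 but to between 11.0 and 33.1 FPKM in the other 5 pools. All 10 hepatocyte genes were higher in the olanzapine pools, with a summed level of 129 to 170.3 FPKM against 6.84 to 12.5 FPKM. What part these tissues had in the levels below was not tested, beyond the values given beside each gene. In bulk tissue fewer cells of a type and less RNA per cell cannot be told apart.

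By mean FPKM over the 6 pools, Penk (318 FPKM) and Sst (209.8 FPKM) stood first, above 99.4% and 98.8% of the genes tested. Npy (59.2 FPKM) and Tac1 (55.2 FPKM) came next. Cartpt (29.4 FPKM), Pdyn (29.0 FPKM) and Nts (27.6 FPKM) formed the next level, and Crh (4.85 FPKM), Gal (4.85 FPKM) and Trh (4.33 FPKM) the lowest. Neighbours in this order overlapped in their range over the 6 pools, except at the steps from Sst to Npy, from Tac1 to Cartpt and from Nts to Crh. Pdyn, which varied from 21.2 to 39.7 FPKM, also overlapped Npy and Tac1 in range, but it was below both within every pool. These pools do not settle the order of Penk and Sst, of Npy and Tac1, of Cartpt, Pdyn and Nts, or of the lowest 3.

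**Figure D1:**
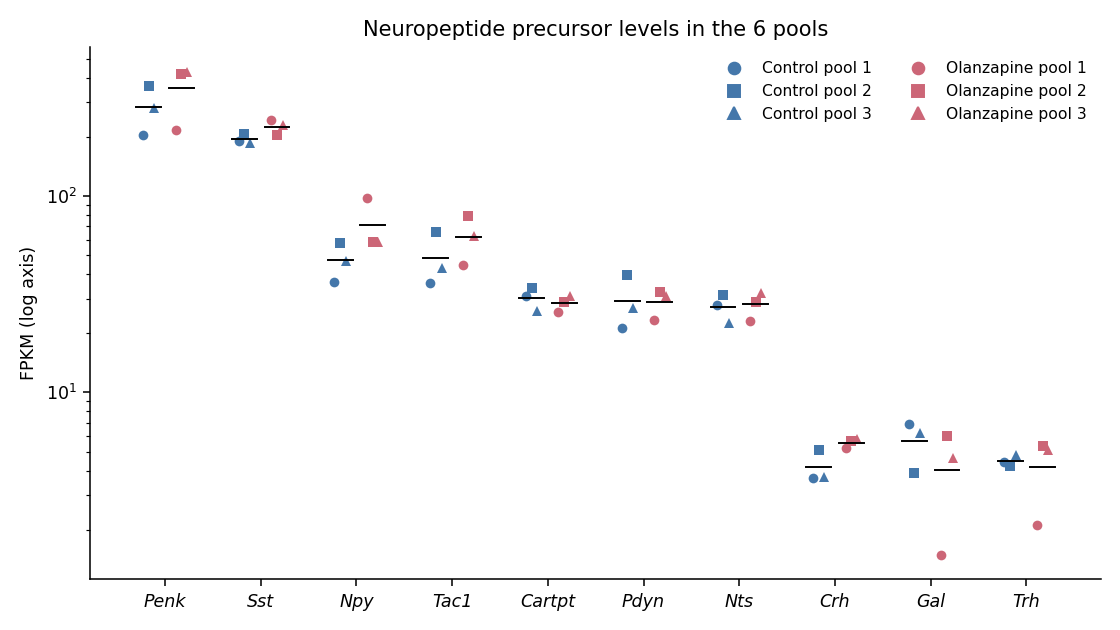
Level of each of the 10 precursors in FPKM on a log axis, with a point for each pool and a bar at the mean of the 3 control and the 3 olanzapine pools. The points of both groups overlap for 8 genes, while the olanzapine pools of Crh and Npy lie above the control pools on this scale. In CPM (counts scaled to library size by TMM) only Crh did not overlap, against 24.3% of all genes.

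None of the 10 precursors passed the test, against 2.32% of all genes. In edgeR 1 member, Npy, had an unadjusted p under 0.05, against 17.6% of all genes, and DESeq2 likewise called 0 (5.79% of all genes) with 1 at an unadjusted p under 0.05 (12.4% of all genes). Limma on log2(FPKM + 1) called 0 (1.85% of all genes) with 3 at an unadjusted p under 0.05 (17.0% of all genes). Without the filter on low values it called 0 (1.28% of all genes) with 2 (15.0%), and on log2(FPKM + 0.1) it called 0 (1.54%) with 1 (15.7%). The estimate was above 0 for 6 of the 10, against 50.7% of all genes, and the median log2 fold change was 0.10, against 0.0039 over all genes. The 95% interval held 0 for 9 of the 10. For 8 of the 10 it excluded a doubling and a halving of the level, and it reached a log2 change of 1 or -1 for Npy and Gal. A p that misses the threshold does not show that the levels were equal, so the interval of each gene is given with its values.

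**Figure D2:**
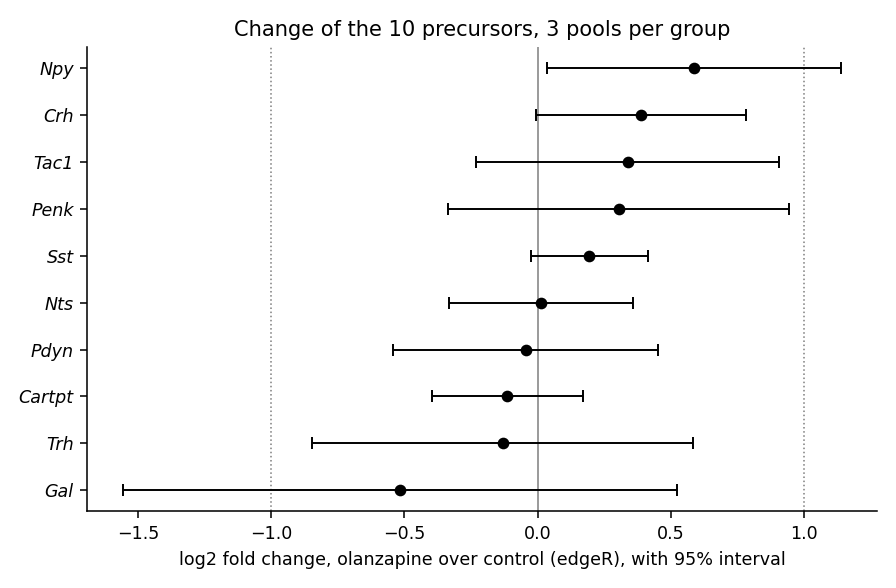
Log2 fold change of each precursor, olanzapine over control, from edgeR with its 95% interval (3 pools per group, dotted lines at 1 and -1). The estimates run from -0.52 for Gal to 0.59 for Npy, and 9 of the 10 intervals cross 0.

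Nts encodes neurotensin, a peptide of a distinct population of lateral septum neurons. Its level was 27.8, 31.3 and 22.7 FPKM in control pools 1 to 3, and 23.0, 28.9 and 32.2 FPKM in olanzapine pools 1 to 3, from 1117 to 1573 counts. The groups overlapped almost wholly, at 27.3 ± 4.35 FPKM and 28.0 ± 4.62 FPKM (SD, n = 3 pools each). The log2 fold change was 0.01 (SE 0.15, 95% interval -0.33 to 0.36, edgeR adjusted p = 0.974). Ntsr2, a neurotensin receptor that astrocytes carry, was the most abundant of the receptor genes examined and had a log2 fold change of 0.07 (edgeR adjusted p = 0.744).

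Sst encodes somatostatin, an inhibitory peptide of septal and cortical GABAergic neurons. Its level was 191, 206 and 186 FPKM in control pools 1 to 3, and 243, 203 and 229 FPKM in olanzapine pools 1 to 3. Olanzapine pool 2 lay within the control range and the other olanzapine pools above it, with means of 194 ± 10.4 FPKM and 225 ± 20.4 FPKM (SD, n = 3 pools each). The log2 fold change was 0.19 (SE 0.10, 95% interval -0.03 to 0.41, edgeR adjusted p = 0.339), and 0.12 without olanzapine pool 1 (edgeR adjusted p = 0.512). It varied little, with a range over all 6 pools of 1.33-fold in CPM (counts scaled to library size by TMM).

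Cartpt encodes the precursor of the CART peptides, which are linked to feeding and reward. Control pools had 31.0, 34.1 and 25.8 FPKM, and olanzapine pools had 25.7, 28.7 and 31.1 FPKM. The groups overlapped, with means of 30.3 ± 4.19 FPKM and 28.5 ± 2.71 FPKM (SD, n = 3 pools each), and the log2 fold change was -0.11 (SE 0.12, 95% interval -0.40 to 0.17, edgeR adjusted p = 0.683). Across pools Cartpt followed Nts more closely than any other pair of the 10 genes followed each other, with a root mean square difference of 0.089 between the log2 CPM profiles, each centred on its mean.

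Crh encodes corticotropin-releasing hormone, which drives the stress axis from the hypothalamus and acts as a local peptide elsewhere. Its level was 3.69, 5.09 and 3.73 FPKM in control pools 1 to 3, and 5.18, 5.67 and 5.76 FPKM in olanzapine pools 1 to 3, from 194 to 295 counts. Every olanzapine pool lay above every control pool, with control pool 2 close to olanzapine pool 1. Means were 4.17 ± 0.796 FPKM and 5.54 ± 0.312 FPKM (SD, n = 3 pools each). The log2 fold change was 0.39 (SE 0.17, 95% interval -0.01 to 0.78, edgeR adjusted p = 0.290). Crh alone of the 10 genes had groups that did not overlap in CPM, whereas 24.3% of all genes did not overlap in either direction and 13.3% with olanzapine higher.

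Npy encodes neuropeptide Y, an appetite-promoting peptide that in the forebrain marks a class of GABAergic interneuron. Its level was 36.5, 57.7 and 46.7 FPKM in control pools 1 to 3, and 97.1, 58.4 and 58.6 FPKM in olanzapine pools 1 to 3, from 824 to 2113 counts. Olanzapine pool 1 stood well above the rest, while the other olanzapine pools were close to control pool 2. The groups did not overlap in FPKM but did overlap in CPM. Means were 47.0 ± 10.6 FPKM and 71.4 ± 22.3 FPKM (SD, n = 3 pools each). Npy had the largest positive estimate of the 10, a log2 fold change of 0.59 (SE 0.24, 95% interval 0.04 to 1.14, edgeR adjusted p = 0.253), the interval being a fold of 1.03 to 2.20. Without olanzapine pool 1 the log2 fold change was 0.28 (edgeR adjusted p = 0.403). It was then below those of Penk (0.55), Tac1 (0.52) and Crh (0.42).

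Penk encodes proenkephalin, the source of the enkephalins, and is a marker of the D2-type striatal projection neuron. Its level was 203, 364 and 279 FPKM in control pools 1 to 3, and 215, 418 and 429 FPKM in olanzapine pools 1 to 3. The lowest pool of each group was close to the other group's lowest. The range was 1.77-fold in CPM over control pools and 1.96-fold over olanzapine pools, with means of 282 ± 80.5 FPKM and 354 ± 120.5 FPKM (SD, n = 3 pools each). The log2 fold change was 0.30 (SE 0.28, 95% interval -0.34 to 0.94, edgeR adjusted p = 0.618). It ran from 0.12 without control pool 1 to 0.55 without olanzapine pool 1 (edgeR adjusted p = 0.174).

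Tac1 encodes the precursor of substance P and neurokinin A, and in the striatum it marks the D1-type projection neuron. Control pools had 36.1, 65.7 and 42.9 FPKM, and olanzapine pools had 44.3, 79.3 and 62.7 FPKM. As with Penk, control pool 2 was above the lowest olanzapine pool, with means of 48.2 ± 15.5 FPKM and 62.1 ± 17.5 FPKM (SD, n = 3 pools each). The log2 fold change was 0.34 (SE 0.25, 95% interval -0.23 to 0.91, edgeR adjusted p = 0.525). It ran from 0.14 without olanzapine pool 2 to 0.63 without control pool 2 (edgeR adjusted p = 0.303).

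Pdyn encodes prodynorphin, the source of the dynorphins, ligands of the kappa opioid receptor. Its level was 21.2, 39.7 and 26.8 FPKM in control pools 1 to 3, and 23.2, 32.3 and 30.9 FPKM in olanzapine pools 1 to 3. Control pool 2 was the highest and control pool 1 the lowest of the 6, so the control range held all olanzapine pools. Means were 29.2 ± 9.51 FPKM and 28.8 ± 4.87 FPKM (SD, n = 3 pools each), and the log2 fold change was -0.05 (SE 0.22, 95% interval -0.54 to 0.45, edgeR adjusted p = 0.937).

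Penk, Tac1 and Pdyn were lowest in pool 1 of each group, as was the summed level of genes of striatal projection neurons. The 12 striatal genes summed to 414, 689.6 and 531 FPKM in control pools 1 to 3, and 392, 859.7 and 792 FPKM in olanzapine pools 1 to 3. Ppp1r1b, which encodes the dopamine signalling protein DARPP-32, had 156, 297 and 239 FPKM in control pools and 172, 393 and 349 FPKM in olanzapine pools. The pools did not match in every respect. The list was highest in olanzapine pool 2, as Tac1 was, while Penk was highest in olanzapine pool 3 and Pdyn in control pool 2. None of the 12 genes changed in edgeR, and 1 had an unadjusted p under 0.05, against 17.6% of all genes.

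As a percent of the summed FPKM of the striatal list, Penk was at 49.1, 52.8 and 52.5% over control pools 1 to 3, against 55.0, 48.7 and 54.3% over olanzapine pools 1 to 3. Its range over the 6 pools fell from 2.11-fold in FPKM to 1.13-fold on this ratio, and the groups overlapped at 51.5% ± 2.05 and 52.6% ± 3.46 (SD, n = 3 pools each). The range of Tac1 was 2.20-fold in FPKM and 1.43-fold on the ratio, and that of Pdyn 1.87-fold and 1.58-fold. The range also narrowed for Trh, from 2.53-fold to 1.98-fold, and for Gal, from 4.63-fold to 4.38-fold. The ratio widened the range of the other 5, of Nts from 1.42-fold to 2.00-fold, of Sst from 1.31-fold to 2.63-fold, of Cartpt from 1.33-fold to 2.24-fold, of Crh from 1.56-fold to 2.01-fold and of Npy from 2.66-fold to 3.65-fold. With the striatal list as a covariate in edgeR, a fit chosen after the data were seen, the log2 fold change of Penk was 0.08 (SE 0.09, adjusted p = 0.653) and that of Tac1 was 0.19 (adjusted p = 0.420). The estimate of Pdyn in that fit was -0.14 (adjusted p = 0.590), that of Gal -0.93 (adjusted p = 0.307) and that of Trh -0.43 (adjusted p = 0.359), each farther from 0 than without the covariate. Nts was at -0.06 and Cartpt at -0.15, while Crh was at 0.35. Npy (0.61, adjusted p = 0.174) and Sst (0.21, adjusted p = 0.236) had an unadjusted p under 0.05, as did 20.6% of all genes, and none of the 10 changed, against 3.12% of all genes. The ratio and the covariate both rest on the RNA of the 12 genes, so the amount of striatum in each pool was not tested.

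**Figure D3:**
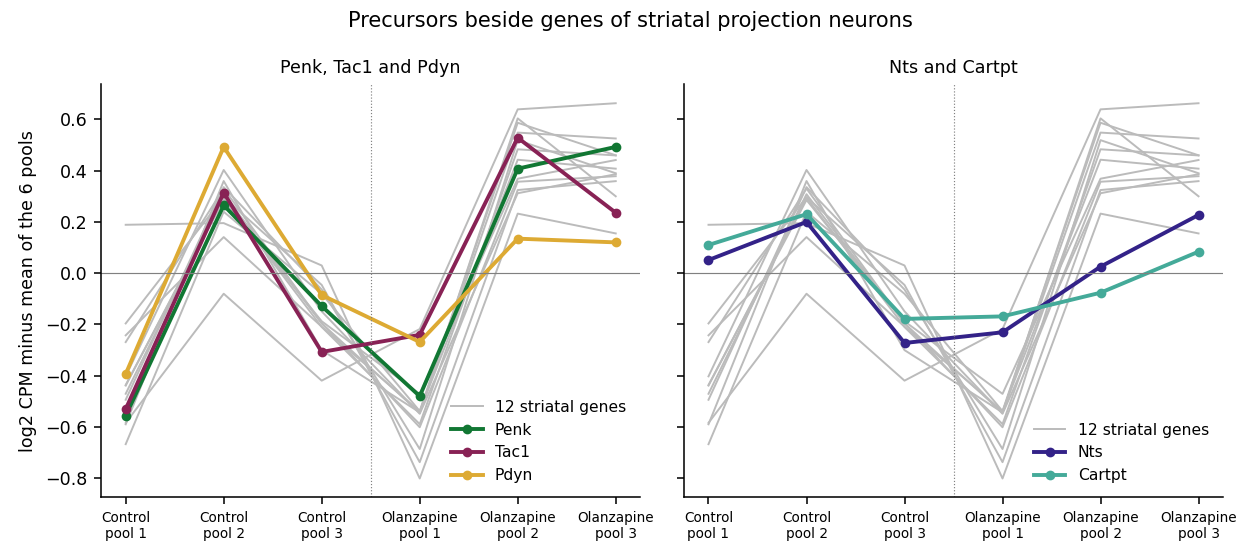
Log2 CPM of Penk, Tac1 and Pdyn (left) and of Nts and Cartpt (right) beside the 12 striatal genes (grey) in each of the 6 pools, each gene centred on its mean over the pools (lines only join the points of a gene). Penk, Tac1 and Pdyn are low in pool 1 of each group, as most striatal genes are.

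The genes whose profile over the 6 pools was closest to a member were found by the root mean square difference of centred log2 CPM, over 14269 genes. For Penk the nearest was Pde10a (0.061), of the striatal list, and only 6 genes lay within 0.1. For Pdyn they were Bcl11b (0.059) and Dclk3 (0.067), and for Tac1 Rarb (0.071) and Epha8 (0.093). For Npy they were Chrm1 (0.077) and Grasp (0.078). Gal and Trh had no gene within 0.1, the nearest being 4930578M01Rik (0.152) and Ppp1r17 (0.182) for Gal, and Ribc2 (0.116) and P2rx5 (0.127) for Trh. Sst had 765 genes within 0.1, led by Osbp2 and Celf5 (both 0.030), and Cartpt had 230, led by Zfp882 (0.031) and 4933412O06Rik (0.038). Nts had 47, led by Zik1 (0.038) and Msantd1 (0.055), and Crh had 33, led by Fbxl12 (0.036) and Catspere2 (0.053). With so many genes as near, closeness singles out little for these 4. All profiles rest on the same 6 libraries.

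Trh encodes the precursor of thyrotropin-releasing hormone. Its level was 4.40, 4.23 and 4.80 FPKM in control pools 1 to 3, and 2.11, 5.33 and 5.09 FPKM in olanzapine pools 1 to 3, from 112 to 282 counts. Olanzapine pool 1 was below all other pools and the other olanzapine pools were above all control pools. Means were 4.48 ± 0.293 FPKM and 4.18 ± 1.80 FPKM (SD, n = 3 pools each), and the log2 fold change was -0.13 (SE 0.31, 95% interval -0.85 to 0.58, edgeR adjusted p = 0.868). Without olanzapine pool 1 the estimate turned to 0.18 (edgeR adjusted p = 0.579).

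Gal encodes galanin, an inhibitory peptide of hypothalamic and basal forebrain neurons. Its level was 6.88, 3.89 and 6.18 FPKM in control pools 1 to 3, and 1.49, 6.01 and 4.65 FPKM in olanzapine pools 1 to 3, from 45 to 216 counts. The lowest pool was again olanzapine pool 1, and the other olanzapine pools lay within the control range. Gal had the widest spread of the 10, 4.65-fold over the 6 pools in CPM, with means of 5.65 ± 1.56 FPKM and 4.05 ± 2.32 FPKM (SD, n = 3 pools each). Its log2 fold change of -0.52 (SE 0.45, 95% interval -1.56 to 0.52, edgeR adjusted p = 0.599) was -0.13 without olanzapine pool 1 (edgeR adjusted p = 0.851).

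Olanzapine pool 1 thus held the highest Npy and Sst and the lowest Gal and Trh. The same pool stood apart in genes of cortical and hippocampal glutamatergic neurons, with 7 of the 8 at their highest there and 1, Rorb, at its lowest. Slc17a7, which encodes the vesicular glutamate transporter of those neurons, was at 221 FPKM there and between 3.64 and 18.7 FPKM in the other pools. Cck, the cholecystokinin precursor and the most abundant of the other precursors, was at 159.6 FPKM there and at 10.6 to 29.8 FPKM elsewhere. Vip and Cort, precursors of cortical interneurons picked after their values were seen, were at 11.3 and 3.46 FPKM there, against at most 2.01 and 0.67 FPKM elsewhere. The 6 markers of cortical-type interneurons did not share this, with a sum of 59.0 FPKM there and 47.2 to 59.9 FPKM elsewhere, 3 of the 6 at their lowest in that pool and 1 at its highest. The 5 thalamic markers summed to 32.1 FPKM in olanzapine pool 1 and to between 52.9 and 72.3 FPKM in the other pools. The 10 hypothalamic and preoptic markers summed to 13.2 FPKM there, within the 11.4 to 47.2 FPKM of the other pools, with 3 of the 10 at their lowest there and 1 at its highest. The 9 lateral septum markers summed to 82.9 FPKM in this pool and to between 104 and 157 FPKM in the others, with 6 of the 9 at their lowest, and 9 of the 12 striatal genes and all 5 astrocyte markers were at their lowest there too. The part of any of these tissues in the Npy, Sst, Gal and Trh levels of olanzapine pool 1 was not tested.

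**Figure D4:**
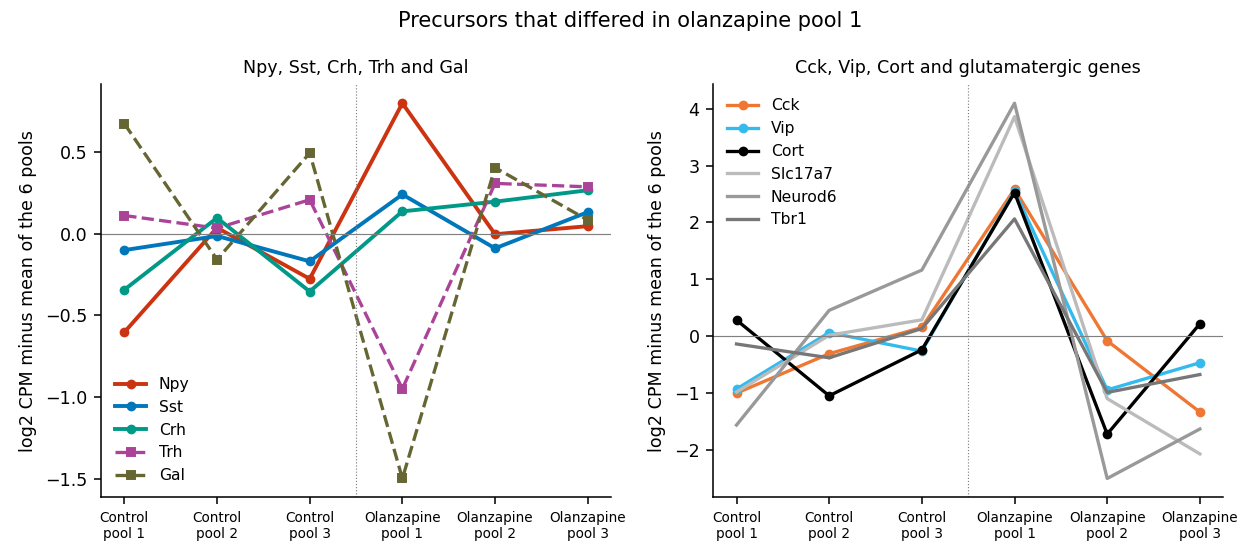
Log2 CPM of 5 precursors (left) and of Cck, Vip, Cort and 3 glutamatergic genes (right) in each pool, centred on each gene's mean over the 6 pools (the vertical scales differ). In olanzapine pool 1 Npy and Sst are at their highest, Trh and Gal at their lowest, and all 6 genes on the right at their highest.

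The spread between pools of a group, as the SD of log2 CPM, was 0.78 for Gal, 0.51 for Trh, 0.48 for Penk, 0.41 for Tac1, 0.39 for Npy and 0.36 for Pdyn. It was 0.24 for Nts, 0.19 for Crh, 0.17 for Cartpt and 0.13 for Sst. The median over the 10 was 0.37, against 0.14 over the 14279 genes that averaged 50 counts or more, and 9 of the 10 exceeded that median. For Gal only 1.60% of those genes had a larger spread, and for Trh 5.17%. In CPM Gal ranged 1.79-fold over control pools and 3.86-fold over olanzapine pools, and Trh 1.13-fold and 2.41-fold. Olanzapine pool 1 was the lowest for both.

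The promoters were read from RefSeq windows on GRCm38.p6 for the 8 members that had one, all but Penk and Crh. The full cyclic AMP response element TGACGTCA, which is its own reverse complement and binds CREB-family factors, was found within 250 bases upstream of the start in Sst and Cartpt. These sites are shown with the motif in capitals.
Sst, chr16:23890874-23890903, minus strand: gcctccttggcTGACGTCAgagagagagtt
Cartpt, chr13:99900777-99900806, minus strand: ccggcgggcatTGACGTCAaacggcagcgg
The Sst site begins 48 bases and the Cartpt site 112 bases upstream of the RefSeq start. For both genes the GENCODE span given above begins further upstream than that start, so the sites lie inside the GENCODE genes. Of all 32851 windows 1.55% held the element, and 2.24% of those of tested genes. Its shorter core TGACG, on either strand and contained in the full element, was in 5 of the 8 (Cartpt, Nts, Sst, Tac1 and Trh), against 17.8% of all windows and 23.7% of those of tested genes. A match describes letters only, and neither Sst nor Cartpt passed the test.

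Around the 10 genes, 3 lists of the pathway were counted: other precursors, processing and vesicle genes, and receptors. Of 45 other neuropeptide precursors 24 could be tested and 5 were at 0 counts in every pool. None changed in edgeR, 2 of the 24 had an unadjusted p under 0.05, against 17.6% of all genes, and 12 of the 24 estimates were above 0. Cck had a log2 fold change of 1.61 (SE 0.87, edgeR adjusted p = 0.381), which without olanzapine pool 1 was -0.27. Pnoc, the nociceptin precursor, had -0.25 (edgeR adjusted p = 0.570), and Tac2, the neurokinin B precursor, 0.21 (edgeR adjusted p = 0.716). Npff, which encodes neuropeptide FF and was picked after its values were seen, was at 0.73, 0.39 and 0.74 FPKM in control pools and 1.63, 1.76 and 1.97 FPKM in olanzapine pools, at no more than 34 counts in any pool. Its groups did not overlap, as those of 24.3% of all genes did not in CPM. Its log2 fold change was 1.49 (SE 0.42, edgeR adjusted p = 0.122), and limma on log2(FPKM + 1) gave it an adjusted p of 0.0170.

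All 20 genes of peptide processing and dense-core vesicles were tested. None changed in edgeR, and 4 of the 20 had an unadjusted p under 0.05, all lower, against 17.6% of all genes, while DESeq2 called Pcsk6 and Scg2, against 5.79% of all genes. The median log2 fold change was -0.11, with 7 of 20 above 0. Cpe, the carboxypeptidase that trims the cut ends, was the most abundant and had -0.16 (edgeR adjusted p = 0.423). Pcsk1n, which encodes an inhibitor of prohormone convertase, had 0.04 (edgeR adjusted p = 0.848). Scg2, a granin of the vesicle core, was at 176, 209 and 195 FPKM in control pools and 136, 168 and 170.1 FPKM in olanzapine pools. Its groups did not overlap, as those of 24.3% of all genes did not in CPM. Its log2 fold change was -0.32 (SE 0.10, edgeR adjusted p = 0.161, DESeq2 adjusted p = 0.0490).

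Of 26 receptors and binding proteins of these peptides 22 were tested. None changed in edgeR, and 4 of the 22 had an unadjusted p under 0.05, all lower, against 17.6% of all genes, while DESeq2 called Oprm1, against 5.79% of all genes. The median log2 fold change was -0.03. After Ntsr2 the most abundant were Sort1, the sorting receptor that binds neurotensin, at -0.03 (edgeR adjusted p = 0.948), and Sstr2, a somatostatin receptor, at 0.11 (edgeR adjusted p = 0.847). Oprm1, the mu opioid receptor and a target of the enkephalins, was at 0.90, 0.86 and 0.68 FPKM in control pools and 0.39, 0.31 and 0.52 FPKM in olanzapine pools. It was named for these values. Its groups did not overlap, as those of 24.3% of all genes did not in CPM. Its log2 fold change was -1.02 (SE 0.25, edgeR adjusted p = 0.0854, DESeq2 adjusted p = 0.00737).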

How the data were processed

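Total RNA of lateral septum was sequenced in 6 libraries, 3 per group. Per the submitters' processing notes the authors used fastp, HISAT2 and HTSeq with the mm10 build. Versions and the strand setting are not given in the sources used here. The authors deposited 1 table of raw read counts per gene and 1 table of FPKM per gene, and counts in genes were 38208153 to 39868872 per library. The members and lists were chosen with earlier results of these data known.

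The deposited counts were tested with edgeR 4.0.16 in R 4.3.3 (TMM, filterByExpr, quasi-likelihood test, group as the only term), and p-values were adjusted by Benjamini-Hochberg over all 17255 genes. Changed meant an adjusted p under 0.05, two-sided. An exact permutation test of 3 against 3 pools cannot go below 0.1 and was not used. The deposited FPKM gave the levels, as mean and SD over pools. CPM profiles used a prior count of 2. DESeq2 1.42.0, limma 3.58.1 on log2 FPKM, other scalings and filters, a replicate block, leaving out each pool and a striatal covariate (added after seeing the data) were alternatives. The tests were checked on simulated counts. Replicates are pools, and no pair of libraries of the same group agreed within sampling noise (chi-square per degree of freedom 21.0 to 51.5).

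All 10 members were named. Of each pathway list the text named genes past the threshold and the 3 with the highest mean FPKM, and of marker lists up to 3 by mean FPKM. For likeness it named the 2 nearest genes of each member, except that 1 gene for Penk is not reported here. Genes named otherwise are given as such.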

Additional observations from a re-analysis of the deposited data

How the results depend on the processing

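None of the 10 precursors changed under any of the 16 other settings. The lowest adjusted p of a member over all settings was 0.108 (Npy, DESeq2), and the next was 0.145 (Tac1, replicate block). Over all genes, 401 changed in edgeR, 1097 in DESeq2, 267 with limma on log2(FPKM + 0.1), and 131 to 508 when 1 pool was left out, the highest without olanzapine pool 1 and the lowest without control pool 2. The count was 135 without control pool 1, 175 without control pool 3, 176 without olanzapine pool 2 and 139 without olanzapine pool 3. Of the other precursors 1 (Npff) changed with limma on log2(FPKM + 1), with the filter (1.85% of all genes) and without it (1.28% of all genes). Of the processing genes 2 changed in DESeq2 (Pcsk6, Scg2), against 5.79% of all genes, and 1 (Scg2) with the striatal covariate, against 3.12%. Of the receptors 1 (Oprm1) changed in DESeq2, against the same 5.79%. The cause of these differences was not tested.

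Estimates near 0 changed sign. Nts was -0.062 with the striatal covariate and ran from -0.10 to 0.13 with a pool left out. Pdyn was 0.0122 with limma on log2(FPKM + 1), with and without the filter, and 0.0136 with log2(FPKM + 0.1), and ran from -0.23 to 0.24 with a pool left out. Trh ran from -0.33 to 0.18 with a pool left out and was -0.43 with the striatal covariate. The other 7 kept their sign with a pool left out, with ranges of 0.12 to 0.28 for Sst, 0.12 to 0.55 for Penk, 0.14 to 0.63 for Tac1, -0.21 to -0.02 for Cartpt, 0.31 to 0.56 for Crh, -0.89 to -0.13 for Gal and 0.28 to 0.76 for Npy. Without olanzapine pool 1, Npy was 0.28 and Gal -0.13, while Penk was 0.55 (adjusted p = 0.174).

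The labels number the pools 1 to 3 in each group without saying what the numbers stand for. Deviations of same-numbered pools from their group means correlated at 0.01, 0.11 and -0.40 over genes. With 3 pools per group these correlations cannot tell whether same-numbered pools shared a batch. With the replicate block 140 genes changed, and none of the 10 precursors. Gal (45 to 216) and Trh (112 to 282) had the lowest counts of the 10 and the widest spread between pools.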
